A study of Mus musculus with 6 samples.

Results

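The comparison described here is that of mouse visual cortex given hairpins against both CSB and necdin (shCSB/shNDN) with visual cortex given the CSB hairpin alone (shCSB). It asks what the added necdin hairpin goes with when the CSB hairpin is present in both groups. Its members are the genes with at least 0.5 FPKM (fragments per kilobase of gene, scaled to the mapped reads) in 2 or more of the 4 libraries of these groups, which held for 15711 of the 54429 genes of the deposited table. RNA came from the V1 (primary visual) cortex of female C57BL mice aged 9 weeks whose V1 had been injected with AAV, an adeno-associated virus used to bring genes into cells. The shCSB/shNDN group received AAV-shCSB/shNDN, the shCSB group AAV-shCSB, and a further group AAV-shControl, with 2 libraries each. The labels name neither the promoter of the hairpins nor the cells that took up the virus, and no group here was left without an injection. Because the series text names 2 mice for each genotype, the libraries were taken as separate animals, and the spread between them is that of 2 animals per group.

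CSB, the product of Ercc6, is a chromatin remodeller that helps repair DNA damage which blocks RNA polymerase, and people who lack it have Cockayne syndrome, with poor growth and failing nerve function. Necdin, the product of the imprinted gene Ndn, is a MAGE family protein of postmitotic neurons that binds E2F1 and p53. Microglia are the resident phagocytes of the brain. In injured or degenerating tissue they are known to lower some of their resting markers and to switch on genes for lipid handling, lysosomes and antigen presentation, a state called disease-associated microglia that depends on the receptor Trem2. Astrocytes near an injury raise the filament genes Gfap and Vim.

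The shCSB/shNDN libraries held 16545933 and 16384738 reads and the shCSB libraries 16192850 and 17365285. The filter was passed through the shCSB/shNDN pair alone by 219 genes (1.39%) and through the shCSB pair alone by 169 (1.08%), so these genes had to differ. Just inside the threshold lay Tmsb15l, at 0.503 and 0.501 FPKM in shCSB/shNDN and 0.224 and 0.275 FPKM in shCSB. Just outside lay Rab2b, at 0.816 and 0.140 FPKM in shCSB/shNDN and 0.352 and 0.499 FPKM in shCSB. The shCSB/shNDN libraries differed from each other more than the shCSB libraries did. Replicate 2 of shCSB/shNDN had 1.41% of its reads on mitochondrially encoded genes, against 5.27% in replicate 1 and 4.95% and 7.65% in shCSB. It had 435 entries with a single read, against 1839 in replicate 1 and 1662 and 1637 in shCSB. What part these 2 features have in the results was not tested, and genes are therefore given with both shCSB/shNDN values, replicate 1 first.

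Ndn (ENSMUSG00000033585), the target of the added hairpin, is a protein-coding gene at positions 62346569 to 62350262 of chromosome 7 on the plus strand (GRCm38). It had 16.8 and 41.0 FPKM in shCSB/shNDN, 47.9 and 38.1 FPKM in shCSB, and 56.1 and 49.8 FPKM in shControl. Replicate 1 of shCSB/shNDN lay below every other library, while replicate 2 lay within the range of the shCSB pair, so the groups overlap. On the log2(FPKM + 1) scale the difference between shCSB/shNDN and shCSB was -0.68 ± 0.43 (SE, n = 2 each), with a 95% interval of -1.75 to 0.40, and the limma test with Benjamini-Hochberg adjustment gave an adjusted p of 0.927. The libraries labelled shCSB/shNDN are therefore lower in Ndn than the shCSB pair in 1 of 2 animals. Without replicate 2 of shCSB/shNDN the difference was -1.30 with an adjusted p of 0.0345 in limma, and without replicate 1 it was -0.060. Ercc6 (ENSMUSG00000054051, chromosome 14, positions 32513521 to 32580990), the gene that both groups' CSB hairpin is directed against, had 1.61 and 1.81 FPKM in shCSB/shNDN, 1.29 and 1.61 FPKM in shCSB, and 1.46 and 1.22 FPKM in shControl. Its difference between shCSB/shNDN and shCSB was 0.15 ± 0.21 (SE, n = 2 each; 95% interval -0.38 to 0.67; adjusted p = 0.956 in limma). Ercc6 was thus not lower in the libraries that carry its hairpin than in shControl, so neither hairpin is borne out by its target gene in every library, and shCSB/shNDN and shCSB stand below for the libraries labelled so.

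**Figure D1:**
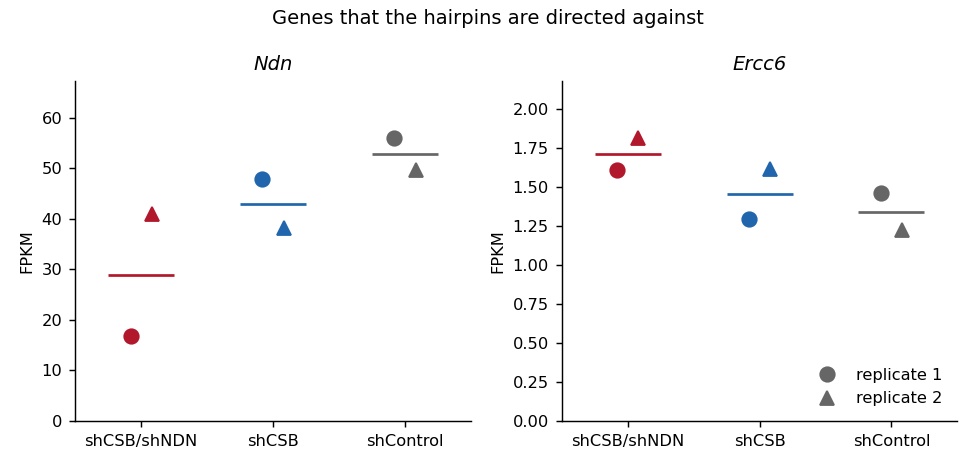
Expression of Ndn and Ercc6 in FPKM (vertical axes, starting at 0) in each library of shCSB/shNDN, shCSB and shControl, with circles for replicate 1, triangles for replicate 2 and lines for group means. For Ndn, replicate 1 of shCSB/shNDN stands at 16.8 FPKM and replicate 2 at 41.0 FPKM, inside the range of the shCSB libraries.

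No gene passed the threshold of 0.05 after adjustment over the 15711 genes (background 0%), and the smallest adjusted p was 0.717 in limma. At an unadjusted p under 0.05, 852 genes (5.42%) passed, 537 higher (3.42%) and 315 lower (2%) in shCSB/shNDN. On the recovered reads, limma-voom likewise passed 0 genes after adjustment and 807 before. The count depended on which shCSB/shNDN library entered. Without replicate 1, 460 genes passed after adjustment (179 higher, 281 lower), and without replicate 2, 467 passed (443 higher, 24 lower), in fits that assume that the lone library varies like the shCSB pair. No single gene below is therefore called changed, and each is described by its values. The median difference of all genes was -0.01 on the log2(FPKM + 1) scale, and the middle 90% lay between -0.55 and 0.62. Both shCSB/shNDN libraries lay above both shCSB libraries for 2626 genes (16.7%) and below both for 2883 (18.4%), and these shares are the background for the counts of each gene group. A stricter description asks that the lower shCSB/shNDN value exceed the higher shCSB value at least 2-fold on the FPKM + 1 scale, a gap that 81 genes (0.516%) showed. The reverse gap, with shCSB/shNDN lower, was seen in 14 genes (0.0891%). Of the 81 genes 75 were protein coding and 39 belonged to the gene lists below, whereas 1 of the 14 was protein coding and none was in a list. Of the 81, 16 passed the filter through shCSB/shNDN alone. Over 5 equal classes of mean expression, from low to high, the 81 genes numbered 10, 17, 19, 11 and 24.

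**Figure D2:**
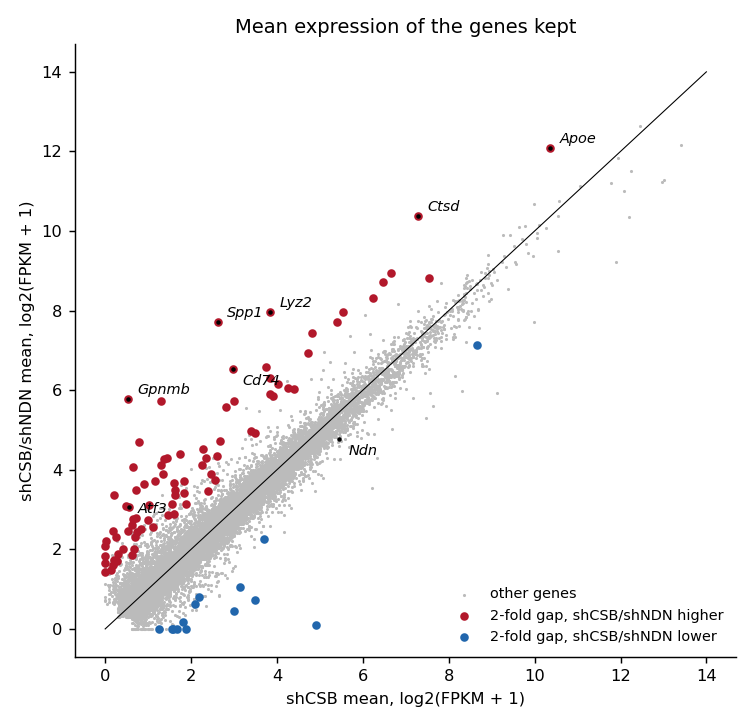
Mean log2(FPKM + 1) of each of the 15711 genes in shCSB/shNDN (vertical) against shCSB (horizontal), with the line of equality; red marks the 81 genes and blue the 14 genes whose libraries are separated by a 2-fold gap. The red points far above the line include Gpnmb, Spp1, Lyz2, Cd74, Ctsd and Apoe, and Ndn lies below the line.

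The disease-associated microglia genes had the largest median difference of the 42 lists when all kept genes were counted. Of the 20 disease-associated genes, all kept, 17 had both shCSB/shNDN libraries above both shCSB libraries and 13 showed the 2-fold gap, while the other 3 overlapped. Their median difference was 2.60, with medians of 3.66 in replicate 1 and 1.49 in replicate 2 relative to the shCSB mean. Itgax and Gpnmb passed the filter through shCSB/shNDN alone and so had to lie above. Of the other 18 genes 15 lay above, 11 of them with the gap, with medians of 3.48 in replicate 1 and 1.39 in replicate 2. The median difference of these 18 was 2.24, below the 2.54 of the MHC class II antigen presentation list, which had no such gene. In bulk tissue, more cells of a type and more RNA per cell cannot be told apart.

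Spp1, which encodes the secreted phosphoprotein osteopontin, had 451 and 96.5 FPKM in shCSB/shNDN and 7.82 and 3.27 FPKM in shCSB, a log2 difference of 5.10 ± 0.76 (SE, n = 2 each). Gpnmb, a glycoprotein of phagocyte lysosomes, had 144 and 19.6 FPKM in shCSB/shNDN and 0.487 and 0.423 FPKM in shCSB (log2 difference 5.23 ± 0.86). Both genes were many times above the shCSB pair in each shCSB/shNDN library, and the libraries themselves differed several-fold. Cst7, an inhibitor of lysosomal proteases, had 204 and 12.7 FPKM in shCSB/shNDN and 1.55 and 1.37 FPKM in shCSB. Lyz2, the lysozyme of myeloid cells, had 477 and 129 FPKM in shCSB/shNDN and 12.4 and 14.5 FPKM in shCSB (log2 difference 4.11 ± 0.60). Lgals3, a galectin that binds damaged lysosomes, had 50.7 and 12 FPKM in shCSB/shNDN and 0.887 and 0.575 FPKM in shCSB (log2 difference 3.91 ± 0.63). In these genes too, replicate 1 was the higher library and replicate 2 still lay well above the shCSB range.

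Receptor and lipid genes of this state lay above the shCSB pair as well. Trem2, the lipid-sensing receptor that the state depends on, had 80.4 and 34.1 FPKM in shCSB/shNDN and 6.37 and 7.57 FPKM in shCSB (log2 difference 2.75 ± 0.42). Its signalling adaptor Tyrobp had 367 and 80.2 FPKM in shCSB/shNDN and 28.4 and 25.7 FPKM in shCSB. Clec7a, a pattern receptor for glucans, had 42.2 and 5.45 FPKM in shCSB/shNDN and 0.463 and 0.660 FPKM in shCSB. Apoe, the main lipid carrier of the brain and a gene of astrocytes as well as microglia, had 5680 and 3333 FPKM in shCSB/shNDN and 1301 and 1341 FPKM in shCSB (log2 difference 1.72 ± 0.49). The 3 genes that overlapped were Cd68, Igf1 and Fabp5. Cd68, a lysosomal membrane protein much used as a marker of phagocytes, had 210 and 8.55 FPKM in shCSB/shNDN and 9.32 and 13 FPKM in shCSB, so that replicate 2 lay below the shCSB range.

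The promoter of Spp1 is shown because its gene has one of the largest differences and because it holds both motifs marked below. The sequence runs 5′ to 3′ from 250 bases before to 50 bases after a start site listed by RefSeq (GRCm38.p6), at chr5:104434861-104435160 on the plus strand. RefSeq lists 2 start sites for Spp1, and the window shown was the first found to hold both motifs. Capitals mark a match to the interferon-stimulated response element (ISRE, GAAA, any 2 bases and GAAA, here on the reverse strand) that begins 157 bases before the start, and a match to the PU.1 motif (GAGGAAGT) that begins 113 bases before it. PU.1 is the transcription factor of the myeloid lineage. Either strand was searched, and the matches do not overlap.
Spp1: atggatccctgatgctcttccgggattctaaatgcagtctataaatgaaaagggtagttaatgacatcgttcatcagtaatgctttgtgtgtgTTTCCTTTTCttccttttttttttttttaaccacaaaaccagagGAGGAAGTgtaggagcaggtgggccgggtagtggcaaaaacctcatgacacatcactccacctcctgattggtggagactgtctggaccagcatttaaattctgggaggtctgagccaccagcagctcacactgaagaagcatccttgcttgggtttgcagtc

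The markers of resting microglia were less uniform. All 14 were kept, 7 lay above in both libraries, none lay below and 7 overlapped, with a median difference of 0.73 (1.41 in replicate 1 and 0.19 in replicate 2). Fcrls, an Fc receptor-like gene, had 156 and 58.2 FPKM in shCSB/shNDN and 12.4 and 12.6 FPKM in shCSB (log2 difference 2.83 ± 0.47). Tmem119 had 47.9 and 22.4 FPKM in shCSB/shNDN and 18.6 and 18.2 FPKM in shCSB. The purinergic receptor P2ry12, which guides microglial processes towards injury, had 15.8 and 3.51 FPKM in shCSB/shNDN and 7.94 and 13.8 FPKM in shCSB, so the shCSB/shNDN libraries lay on either side of the shCSB pair. Its neighbour P2ry13 had the same order, at 11.5 and 0.647 FPKM in shCSB/shNDN and 3.19 and 4.73 FPKM in shCSB. The fractalkine receptor Cx3cr1 had 34.4 and 10.2 FPKM in shCSB/shNDN and 7.05 and 10.4 FPKM in shCSB. P2ry12 and P2ry13 thus lay above the shCSB pair in replicate 1 and below it in replicate 2.

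**Figure D3:**
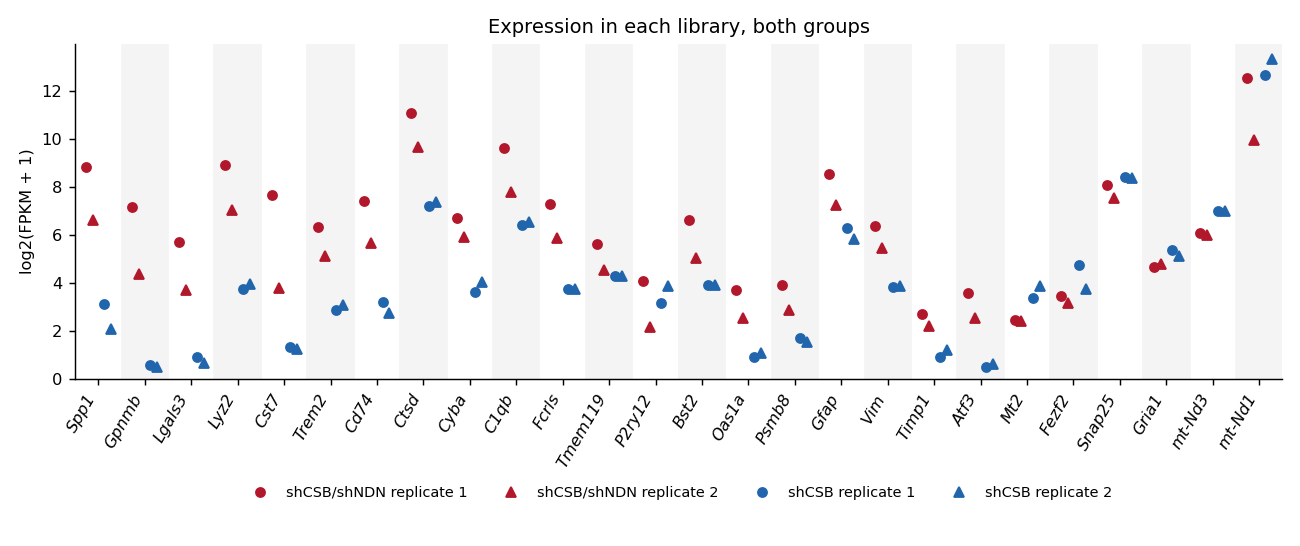
Expression of 26 genes in log2(FPKM + 1) (vertical axis) in each library, with shCSB/shNDN in red and shCSB in blue, circles for replicate 1 and triangles for replicate 2. From Spp1 to Cyba the red points lie above the blue ones, P2ry12 has a red point on either side of the blue pair, and from Mt2 to the right no gene has both red points above the blue.

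Genes of the phagocytic machinery showed the same order of libraries. Of 16 lysosomal and cathepsin genes, 13 lay above in both libraries and 5 with the 2-fold gap, none lay below, and the medians were 2.11 in replicate 1 and 0.68 in replicate 2. Ctsd, a lysosomal aspartic protease, had 2161 and 808 FPKM in shCSB/shNDN and 148 and 163 FPKM in shCSB (log2 difference 3.08 ± 0.52). Ctss, a cathepsin that trims the class II invariant chain in antigen-presenting cells, had 529 and 192 FPKM in shCSB/shNDN and 70.4 and 79.9 FPKM in shCSB (log2 difference 2.07 ± 0.50). Progranulin (Grn), a regulator of lysosomal enzymes, had 228 and 64.6 FPKM in shCSB/shNDN and 25.9 and 24.8 FPKM in shCSB. Each of the 3 lay well outside the shCSB range in both animals.

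Of 14 complement genes 11 were kept, of which 7 lay above in both libraries and none below, with medians of 2.02 in replicate 1 and 0.59 in replicate 2. The 3 chains of C1q, the recognition molecule of the classical pathway, stood together. C1qa had 1006 and 236 FPKM in shCSB/shNDN and 94.3 and 105 FPKM in shCSB. C1qb had 790 and 221 FPKM in shCSB/shNDN and 82.8 and 91.3 FPKM in shCSB, and C1qc had 414 and 103 FPKM in shCSB/shNDN and 40.0 and 41.9 FPKM in shCSB. All 3 had the 2-fold gap. C4b, a component of the same pathway that astrocytes also make, had 36.1 and 16.1 FPKM in shCSB/shNDN and 9.42 and 11.3 FPKM in shCSB.

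All 11 genes of Fc receptors and of the phagocyte NADPH oxidase were kept, 8 above in both libraries and none below, with medians of 2.46 in replicate 1 and 0.63 in replicate 2. One of the 8, the oxidase gene Cybb, passed the filter through shCSB/shNDN alone. Cyba, the membrane subunit p22phox of the oxidase that makes superoxide, had 103 and 59.0 FPKM in shCSB/shNDN and 11.3 and 15.6 FPKM in shCSB, a log2 difference of 2.47 ± 0.34. Of 17 toll-like receptor and inflammasome genes 12 were kept, 9 above and 1 below. Tlr1, Tlr9 and Nlrp3 passed the filter through shCSB/shNDN alone, and without them 6 of 9 lay above and 1 below, with medians of 1.07 in replicate 1 and 0.25 in replicate 2. Among the 6 was Tlr2, a receptor for bacterial lipoproteins, at 11 and 2.91 FPKM in shCSB/shNDN and 0.446 and 0.895 FPKM in shCSB. Its co-receptor Cd14 had 13.7 and 9.00 FPKM in shCSB/shNDN and 2.25 and 4.33 FPKM in shCSB. Both lay above the shCSB pair in both animals.

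Antigen presentation genes had the same order of libraries. Of 8 class II genes 7 were kept, 5 of them above in both libraries and 4 with the 2-fold gap, and the medians were 3.56 in replicate 1 and 1.43 in replicate 2. Cd74, the invariant chain, had 167 and 49.98 FPKM in shCSB/shNDN, 8.27 and 5.78 FPKM in shCSB, and 2.79 and 1.43 FPKM in shControl (log2 difference of shCSB/shNDN from shCSB 3.54 ± 0.57). Bst2, Cxcl10 and Cdkn2a, given below, were likewise lower in shControl than in shCSB, but this was not general. Ctsd had 134 and 145 FPKM in shControl, near its 148 and 163 FPKM in shCSB. Gpnmb had 0.49 and 0.555 FPKM in shControl, near its 0.487 and 0.423 FPKM in shCSB. A graded rise from shControl through shCSB to shCSB/shNDN was not tested. The chains H2-Ab1, at 35.4 and 9.74 FPKM in shCSB/shNDN and 2.16 and 1.30 FPKM in shCSB, and H2-Eb1, at 38.1 and 10.3 FPKM in shCSB/shNDN and 2.53 and 2.14 FPKM in shCSB, had the same order. Of 12 class I and peptide-loading genes 11 were kept, 7 above and none below (medians 1.45 in replicate 1 and 0.54 in replicate 2). Psmb8, a catalytic subunit of the immunoproteasome, had 13.9 and 6.26 FPKM in shCSB/shNDN and 2.28 and 1.87 FPKM in shCSB (log2 difference 1.76 ± 0.37). Tapbp, the chaperone tapasin, had 37.9 and 24.6 FPKM in shCSB/shNDN and 12.5 and 14.1 FPKM in shCSB. Genes of the H2 complex are near copies of each other, so the split of reads among them is uncertain.

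The interferon response genes showed a smaller shift, carried by replicate 1. Of 26 genes 24 were kept, 10 above in both libraries, none below and 14 overlapping, with medians of 1.19 in replicate 1 and 0.17 in replicate 2. Bst2 (tetherin), which holds budding viruses at the cell surface, had 98.6 and 32.2 FPKM in shCSB/shNDN, 14.1 and 14 FPKM in shCSB, and 5.64 and 6.45 FPKM in shControl (log2 difference of shCSB/shNDN from shCSB 1.93 ± 0.51). Oas1a, a sensor of double-stranded RNA from a family of near copies, had 12 and 4.80 FPKM in shCSB/shNDN and 0.907 and 1.13 FPKM in shCSB (log2 difference 2.11 ± 0.40). Irf7, the regulator of type I interferon genes, had 16.7 and 2.77 FPKM in shCSB/shNDN and 1.91 and 3.04 FPKM in shCSB, and so overlapped. Of 14 chemokine genes 12 were kept and 6 lay above, with none below. Without Ccl7 and Cxcl13, which passed the filter through shCSB/shNDN alone, 4 of 10 lay above, and the medians were 2.11 in replicate 1 and 0.12 in replicate 2. Ccl4, a chemokine of activated phagocytes, had 13.1 and 4.07 FPKM in shCSB/shNDN and 0.555 and 0.255 FPKM in shCSB, the shCSB values resting on 6 and 3 reads. Cxcl10, a ligand of CXCR3 induced by interferon, had 10.9 and 3.58 FPKM in shCSB/shNDN, 1.14 and 1.30 FPKM in shCSB, and 0.0273 and 0.0297 FPKM in shControl.

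Promoters of Ctss and Bst2 are shown as examples of the lysosomal and interferon groups that hold the searched motifs. Both are RefSeq windows of the same length as for Spp1 (GRCm38.p6), Ctss at chr3:95526536-95526835 on the plus strand and Bst2 at chr8:71537423-71537722 on the minus strand. In Ctss, capitals mark an ISRE match that begins 21 bases before the start and a PU.1 match on the reverse strand that begins 2 bases before it. In Bst2, capitals mark a pair of overlapping ISRE matches that begin 130 and 124 bases before the start.
Ctss: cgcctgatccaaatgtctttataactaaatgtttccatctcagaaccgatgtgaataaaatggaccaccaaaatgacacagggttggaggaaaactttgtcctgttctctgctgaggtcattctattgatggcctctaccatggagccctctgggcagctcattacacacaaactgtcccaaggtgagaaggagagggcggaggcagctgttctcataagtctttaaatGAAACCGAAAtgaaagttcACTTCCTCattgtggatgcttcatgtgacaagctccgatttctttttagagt
Bst2: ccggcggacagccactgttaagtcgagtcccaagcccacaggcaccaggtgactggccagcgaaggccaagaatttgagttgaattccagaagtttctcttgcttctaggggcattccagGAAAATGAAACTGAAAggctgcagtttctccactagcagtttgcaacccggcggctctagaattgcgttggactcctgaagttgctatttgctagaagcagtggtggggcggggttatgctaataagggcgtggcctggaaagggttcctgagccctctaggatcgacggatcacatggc

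An ISRE match was present in 3.99% of the 27025 gene symbols of the RefSeq promoter table and in 3.63% of the 10911 kept genes found there. It was present in 14 of the 20 interferon response genes with a promoter in the table, and in 6 of the 64 genes of the 2-fold gap that had one (9.38%). In the other lists, an ISRE match was present in 1 of 17 disease-associated microglia genes and 2 of 13 lysosomal genes. The counts were 3 of 8 for Fc receptor and oxidase genes and 2 of 15 for reactive astrocyte genes. The PU.1 motif was present in 3.69% of all symbols, in 3.42% of kept genes and in 5 of the 64 (7.81%). It was present in 1 of 17 disease-associated microglia genes, 2 of 13 lysosomal genes and 1 of 8 Fc receptor and oxidase genes. It was absent from the 20 interferon genes and the 15 reactive astrocyte genes. The AP-1 motif TGANTCA was present in 8.97% of all symbols, in 6.09% of kept genes and in 9 of the 64 (14.1%). By list, AP-1 was present in 6 of 17 disease-associated microglia genes, 5 of 20 interferon genes, 4 of 15 reactive astrocyte genes, 1 of 8 Fc receptor and oxidase genes and 0 of 13 lysosomal genes. The CLEAR motif TCACGTGA, which is bound by the lysosomal regulator TFEB, was present in 1.12% of all symbols and in 2.09% of kept genes. It was present in 2 of the 64 and in 2 of the 13 lysosomal genes. These are counts of gene symbols with a letter match on either strand in any of their promoters.

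Reactive astrocyte genes also lay above the shCSB level in both animals. Of 15 genes 11 were kept, 10 above in both libraries, none below, with medians of 1.95 in replicate 1 and 1.05 in replicate 2. Without Cd44 and Tgm1, which passed the filter through shCSB/shNDN alone, 8 of 9 lay above, with medians of 1.62 in replicate 1 and 1.05 in replicate 2. Gfap, the intermediate filament of astrocytes, had 372 and 152 FPKM in shCSB/shNDN and 76.3 and 56.3 FPKM in shCSB (log2 difference 1.84 ± 0.47). Vim, another filament gene that microglia and vessels also express, had 81.8 and 42.6 FPKM in shCSB/shNDN and 13 and 13.4 FPKM in shCSB (log2 difference 2.08 ± 0.34). Timp1, an inhibitor of matrix metalloproteinases, had 5.48 and 3.55 FPKM in shCSB/shNDN and 0.894 and 1.33 FPKM in shCSB. Serpina3n, a secreted protease inhibitor, had 124 and 16.7 FPKM in shCSB/shNDN and 8.43 and 8.90 FPKM in shCSB. Genes of astrocyte identity stood near the shCSB level, with 1 of 12 above, 1 below and medians of -0.07 in replicate 1 and 0.09 in replicate 2. Aldoc, a glycolytic enzyme of astrocytes, was the one below, at 270 and 195 FPKM in shCSB/shNDN and 312 and 369 FPKM in shCSB. The metallothioneins, metal-binding proteins that astrocytes make in large amounts, lay lower. Mt2 had 4.48 and 4.27 FPKM in shCSB/shNDN and 9.34 and 13.8 FPKM in shCSB, a log2 difference of -1.20 ± 0.24, and Mt1 had 188 and 151 FPKM in shCSB/shNDN and 250 and 309 FPKM in shCSB. Mt3 overlapped between the groups.

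**Figure D4:**
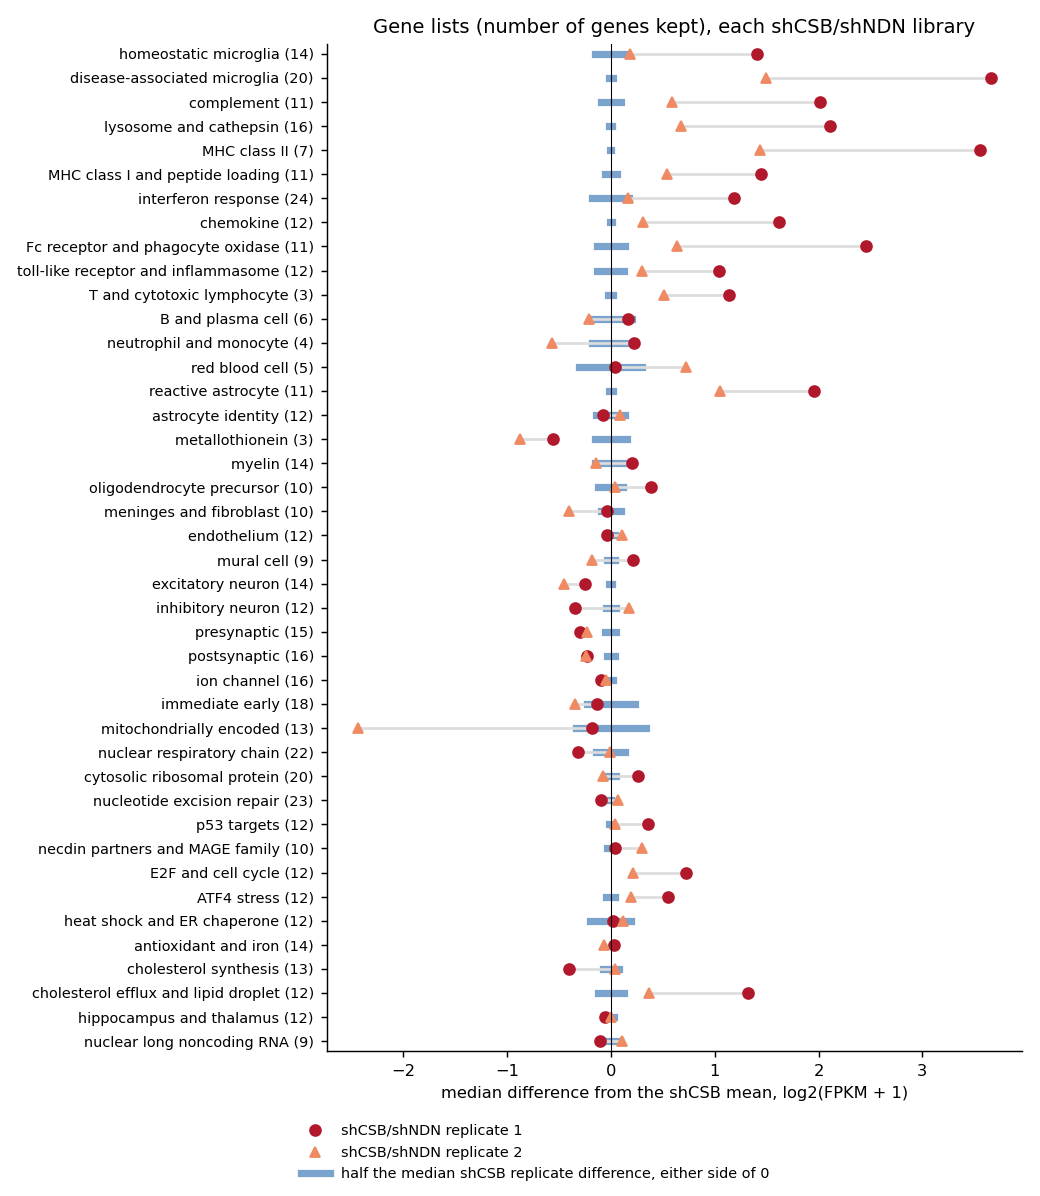
Median difference from the shCSB mean in log2(FPKM + 1) (horizontal axis) over the kept genes of each of 42 lists (number kept in brackets), with a circle for shCSB/shNDN replicate 1 and a triangle for replicate 2; blue bars show the scale of the shCSB replicate difference. Both marks lie right of 0 for 20 lists and left of 0 for 9. The disease-associated microglia list, Itgax and Gpnmb included, lies furthest right, at 3.66 and 1.49.

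Of 12 genes of cholesterol efflux and lipid droplets, all kept, 8 lay above in both libraries and none below (medians 1.32 in replicate 1 and 0.37 in replicate 2). The efflux pump Abca1 had 9.66 and 5.09 FPKM in shCSB/shNDN and 1.37 and 2.30 FPKM in shCSB (log2 difference 1.52 ± 0.34), and the droplet coat gene Plin2 had 19.4 and 7.55 FPKM in shCSB/shNDN and 2.10 and 3.04 FPKM in shCSB. Of 14 cholesterol synthesis genes 13 were kept, none above and 3 below, a share near the background, with medians of -0.41 in replicate 1 and 0.04 in replicate 2. Apoe is counted both here, under efflux, and among the disease-associated genes.

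Markers of cells that enter the brain from blood gave mixed values. Ly6g and Retnlg, which define neutrophils, had 0 reads in all libraries. The 10 neutrophil and monocyte genes summed to 23.3 and 3.06 FPKM in shCSB/shNDN and 5.36 and 6.49 FPKM in shCSB, with 4 kept and none separated. Most of each sum came from Csf3r, at 20.3 and 2.78 FPKM in shCSB/shNDN and 3.06 and 3.49 FPKM in shCSB. S100a8 had 0.591 and 0 FPKM in shCSB/shNDN and 0.264 and 1.05 FPKM in shCSB. S100a9 had 0.786 and 0 FPKM in shCSB/shNDN and 0.585 and 1.40 FPKM in shCSB. The 14 T and cytotoxic lymphocyte genes summed to 9.24 and 3.35 FPKM in shCSB/shNDN and 1.99 and 1.77 FPKM in shCSB, with 3 kept. The 2 of these that lay above, Nkg7 and Ptprc, passed the filter through shCSB/shNDN alone and so had to. Ptprc (CD45), which microglia express too, had 1.53 and 0.635 FPKM in shCSB/shNDN and 0.130 and 0.166 FPKM in shCSB. The 8 B and plasma cell genes summed to 124 and 35.5 FPKM in shCSB/shNDN and 203 and 80.3 FPKM in shCSB, including Igkc, the kappa light chain constant region, at 79.3 and 3.84 FPKM in shCSB/shNDN and 168 and 36.9 FPKM in shCSB. The kappa variable segment Igkv4-53 was separated with the 2-fold gap, at 0.160 and 0 FPKM in shCSB/shNDN and 84.0 and 9.65 FPKM in shCSB, while both shControl libraries had 0 reads of it. The 5 red blood cell genes overlapped in all cases. The 12 meningeal and fibroblast genes summed to 644 and 359 FPKM in shCSB/shNDN and 902 and 576 FPKM in shCSB, with 2 of 10 kept genes above and 2 below. Most of each sum came from Ptgds, which overlapped, at 561 and 246 FPKM in shCSB/shNDN and 840 and 528 FPKM in shCSB. Igfbp2 lay above, at 61.2 and 94.5 FPKM in shCSB/shNDN and 34.1 and 29.5 FPKM in shCSB, while Lum and Ogn lay below. Endothelial genes (12 kept, 2 above, 1 below), mural cell genes (9 kept, 1 above, 1 below), myelin genes (14 kept, 2 above, none below) and precursors of oligodendrocytes (10 kept, 4 above, none below) had medians between -0.01 and 0.06. Their part in the microglial and astrocyte values was not tested.

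Synaptic genes lay slightly below the shCSB level in both animals. Of 15 presynaptic genes 11 lay below in both libraries and none above, with medians of -0.30 in replicate 1 and -0.23 in replicate 2. Snap25, a membrane fusion protein of the synaptic vesicle cycle, had 268 and 183 FPKM in shCSB/shNDN and 339 and 326 FPKM in shCSB, and Syn1, a vesicle phosphoprotein, had 199 and 88.7 FPKM in shCSB/shNDN and 220 and 227 FPKM in shCSB. The vesicle GTPase gene Rab3a had 283 and 192 FPKM in shCSB/shNDN and 456 and 328 FPKM in shCSB. None of the 15 passed even the unadjusted threshold. Of 16 postsynaptic genes 6 lay below and none above (medians -0.23 in replicate 1 and -0.24 in replicate 2). Gria1, an AMPA receptor subunit, had 24.2 and 26.3 FPKM in shCSB/shNDN and 40.2 and 34.0 FPKM in shCSB (log2 difference -0.53 ± 0.22). Of 16 ion channel genes 5 lay below and 1 above.

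Among 14 excitatory neuron genes 4 lay below and none above, with medians of -0.25 in replicate 1 and -0.45 in replicate 2. Fezf2, a transcription factor of deep-layer projection neurons, had 9.83 and 7.94 FPKM in shCSB/shNDN and 26.0 and 12.5 FPKM in shCSB (log2 difference -0.96 ± 0.36), and the shCSB animals themselves differed about as much as the groups did. Neurod6, a factor of pyramidal neurons, had 17.0 and 20.4 FPKM in shCSB/shNDN and 48.6 and 24.7 FPKM in shCSB. Slc17a7, the main vesicular glutamate transporter of the cortex, had 313 and 206 FPKM in shCSB/shNDN and 357 and 294 FPKM in shCSB, and overlapped. Of 12 inhibitory neuron genes 4 lay below and none above, but the medians of the animals differed in sign, at -0.35 in replicate 1 and 0.17 in replicate 2. Pvalb, the calcium buffer of fast-spiking interneurons, had 69.0 and 246 FPKM in shCSB/shNDN and 115 and 108 FPKM in shCSB, and the neuropeptide gene Sst had 280 and 798 FPKM in shCSB/shNDN and 593 and 405 FPKM in shCSB. Of 18 immediate early genes, which neuronal activity induces, 3 lay below and none above (medians -0.13 in replicate 1 and -0.34 in replicate 2). Markers of neighbouring regions (hippocampus, thalamus and striatum) gave 2 above and 2 below of 12 kept and a median of 0.01.

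The mitochondrially encoded genes separated the shCSB/shNDN animals rather than the groups. Over 13 genes the median difference from the shCSB mean was -0.18 in replicate 1 and -2.43 in replicate 2, and 3 lay below in both. The complex I gene mt-Nd1 had 5922 and 978 FPKM in shCSB/shNDN and 6364 and 10117 FPKM in shCSB, and mt-Nd4 had 3327 and 106 FPKM in shCSB/shNDN and 3138 and 4557 FPKM in shCSB. In mt-Nd3, by contrast, the animals of each group were alike, at 65.8 and 62.5 FPKM in shCSB/shNDN and 126 and 128 FPKM in shCSB (log2 difference -0.98 ± 0.23). Of 22 respiratory chain genes encoded in the nucleus 6 lay below and none above, with a median of -0.32 in replicate 1 and -0.01 in replicate 2, so replicate 2 did not share for these the low level of its mitochondrial transcripts. Among 20 cytosolic ribosomal protein genes 9 lay above and 1 below (medians 0.26 in replicate 1 and -0.07 in replicate 2). The one below was Rpl24, at 1.08 and 0.624 FPKM in shCSB/shNDN and 2.07 and 1.64 FPKM in shCSB, and ribosomal protein genes share reads with many processed copies.

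Gene groups that CSB and necdin are known for are read here against the background of 16.7% above and 18.4% below. Of 23 nucleotide excision repair genes, the pathway CSB serves, 4 lay above and 5 below, shares near the background. Their medians were -0.09 in replicate 1 and 0.07 in replicate 2. Of 14 p53 target genes 12 were kept, 3 above and none below (medians 0.36 in replicate 1 and 0.04 in replicate 2), among them Ccng1, a cyclin induced by p53, at 26.8 and 28.5 FPKM in shCSB/shNDN and 20.1 and 19.8 FPKM in shCSB. Of 14 necdin partners and MAGE family genes 10 were kept, 3 above and none below (medians 0.04 in replicate 1 and 0.30 in replicate 2). One of the 3, the neurotrophin receptor gene Ngfr, passed the filter through shCSB/shNDN alone. Without Ngfr 2 of 9 lay above, near the background. Maged1, a MAGE protein of neurons, had 92.8 and 116 FPKM in shCSB/shNDN and 130 and 104 FPKM in shCSB. Magel2, the neighbour of Ndn in the imprinted cluster, was not kept, with 0.0380 and 0.189 FPKM in shCSB/shNDN and 0.171 and 0.0849 FPKM in shCSB. E2F and cell cycle genes, which necdin is known to restrain through E2F1, had 12 of 16 kept, 7 above and none below, with medians of 0.73 in replicate 1 and 0.21 in replicate 2. Without Birc5, which passed the filter through shCSB/shNDN alone, 6 of 11 lay above. Their levels were low, as in Ccnb2, a mitotic cyclin, at 2.87 and 1.56 FPKM in shCSB/shNDN and 0.718 and 0.807 FPKM in shCSB. The microglial lists lay higher with this list in both animals, and their part in it was not tested.

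Stress genes were mixed. Of 12 ATF4 stress genes 5 lay above and none below (medians 0.55 in replicate 1 and 0.19 in replicate 2). Atf3, a transcription factor induced by injury, had the largest difference of the list, at 10.8 and 4.86 FPKM in shCSB/shNDN and 0.425 and 0.522 FPKM in shCSB (log2 difference 2.50 ± 0.36). Atf4 itself had 89.1 and 97.2 FPKM in shCSB/shNDN and 93.9 and 77.3 FPKM in shCSB. Of 12 heat shock and chaperone genes 2 lay above and 1 below, with Hspb1, a small heat shock protein that astrocytes also make, at 24.6 and 32.1 FPKM in shCSB/shNDN and 16.9 and 13.4 FPKM in shCSB. Of 14 antioxidant and iron genes 3 lay above and 2 below. Ftl1, the ferritin light chain that stores iron, had 452 and 455 FPKM in shCSB/shNDN and 186 and 184 FPKM in shCSB (log2 difference 1.29 ± 0.28), with replicates alike in both groups. Nqo1, a quinone reductase, lay on the other side, at 1.36 and 0.301 FPKM in shCSB/shNDN and 3.30 and 2.39 FPKM in shCSB, the shCSB/shNDN replicate 2 value resting on 8 reads. Of 10 nuclear long noncoding RNAs 9 were kept, 1 above and 1 below.

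The 15 genes with the smallest unadjusted p in the higher direction included several with closely matched animals, which distinguishes them from the leading microglial genes. Ube2l6, the conjugating enzyme for the interferon-induced modifier ISG15, had 14.2 and 13.6 FPKM in shCSB/shNDN and 4.22 and 4.93 FPKM in shCSB (log2 difference 1.42 ± 0.20). Tmem176a had 12.2 and 12.4 FPKM in shCSB/shNDN and 4.90 and 4.87 FPKM in shCSB (log2 difference 1.18 ± 0.19). For both genes the difference between the animals was small beside that between the groups. Gpsm3, a regulator of G protein signalling in leukocytes, had 12.4 and 8.53 FPKM in shCSB/shNDN and 2.09 and 2.09 FPKM in shCSB (log2 difference 1.87 ± 0.24). Hcls1, a cortactin-like protein of blood cells, had 14.6 and 9.30 FPKM in shCSB/shNDN and 1.64 and 2.45 FPKM in shCSB (log2 difference 2.07 ± 0.28). Lat2, a signalling adaptor of leukocytes, had 6.62 and 3.92 FPKM in shCSB/shNDN and 0.349 and 0.750 FPKM in shCSB.

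In the lower direction the 15 leading genes had smaller differences, between -1.29 and -0.71 on the log2(FPKM + 1) scale. Besides Mt2 and mt-Nd3 they included Nnat, an imprinted gene of neurons and ependyma, at 34.4 and 28.3 FPKM in shCSB/shNDN and 68.2 and 55.8 FPKM in shCSB (log2 difference -0.96 ± 0.24). The shControl values of Nnat, 80.6 and 25.5 FPKM, spanned both groups. Ldb2, a cofactor of LIM domain proteins, had 6.18 and 3.99 FPKM in shCSB/shNDN and 13.2 and 10.4 FPKM in shCSB (log2 difference -1.09 ± 0.26). Grm3, a metabotropic glutamate receptor of astrocytes and neurons, had 6.40 and 4.52 FPKM in shCSB/shNDN and 9.99 and 11.9 FPKM in shCSB. Atp2b4, a calcium pump of the plasma membrane, had 7.68 and 5.84 FPKM in shCSB/shNDN and 12.9 and 12 FPKM in shCSB. The others were Cyp2j9 and Cyp2j12, which are near copies of each other, and Tmem169, Cstad, Adgra1, Ctxn3, Alox12b, Acyp2 and Gpr22.

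Of the 81 genes with the 2-fold gap above the shCSB pair, 42 were in none of the lists, and a few are given here that were chosen after their values were seen. Cdkn2a, which encodes the cell cycle inhibitors p16 and p19Arf and is used as a marker of senescence, had 3.40 and 2.74 FPKM in shCSB/shNDN, 0.781 and 0.431 FPKM in shCSB, and 0.210 and 0.114 FPKM in shControl. Its log2 difference between shCSB/shNDN and shCSB was 1.35 ± 0.23, on 68 and 55 reads in shCSB/shNDN and 15 and 9 reads in shCSB. The animals of shCSB/shNDN were thus close in Cdkn2a although they differed widely in most microglial genes. Cd5l, a secreted protein of macrophages, had 237 and 61 reads in shCSB/shNDN and 1 and 0 reads in shCSB. Ms4a7, known as a marker of macrophages at the borders of the brain and of cells that enter from blood, had 2.82 and 1.39 FPKM in shCSB/shNDN and 0.192 and 0.0883 FPKM in shCSB. The apolipoprotein gene Apoc4, a neighbour of Apoe, had 152 and 53 reads in shCSB/shNDN and 0 reads in both shCSB libraries. Cd5l, Ms4a7 and Apoc4 passed the filter through shCSB/shNDN alone and so had to lie above. Capg, an actin-capping protein, had 31.6 and 10.5 FPKM in shCSB/shNDN and 1.11 and 2.18 FPKM in shCSB, and Plau, the urokinase protease, had 27.6 and 9.43 FPKM in shCSB/shNDN and 1.86 and 1.12 FPKM in shCSB. Acads, an enzyme of fatty acid oxidation, had 10.1 and 10.02 FPKM in shCSB/shNDN and 4.04 and 4.51 FPKM in shCSB.

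The distance between the shCSB/shNDN animals was itself a main feature of the data. A 2-fold difference on the FPKM + 1 scale separated them for 1027 genes (6.54%) with replicate 1 higher and for 405 genes (2.58%) with replicate 2 higher. Between the shCSB animals these numbers were 124 (0.789%) and 149 (0.948%), and the root mean square SD over genes was 0.45 in shCSB/shNDN and 0.25 in shCSB on the log2(FPKM + 1) scale. Of the 81 genes above the shCSB pair by the 2-fold gap, replicate 1 was the higher in 74, in 49 of them at least 2-fold, and replicate 2 in 7. All 20 disease-associated genes and all 14 resting microglial genes were higher in replicate 1. This was not particular to them, since all 24 kept interferon response, all 16 lysosomal and all 13 mitochondrially encoded genes were higher there too. Of 12 inhibitory neuron genes, by contrast, 10 were higher in replicate 2. Over all genes the median of replicate 1 minus replicate 2 was 0.04. In replicate 1 Ndn was also lowest, and with 2 animals the relation of Ndn to the microglial genes cannot be tested.

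Beyond the microglial and mitochondrial genes, replicate 1 had more of Apoc1, an apolipoprotein gene, at 19.2 and 0.157 FPKM in shCSB/shNDN and 0.738 and 1.51 FPKM in shCSB, and of S100a11, a calcium-binding protein, at 15.9 and 0 FPKM in shCSB/shNDN and 8.24 and 7.48 FPKM in shCSB. Gapdh had 64.9 and 3.35 FPKM in shCSB/shNDN and 3.99 and 4.72 FPKM in shCSB, and its many processed copies make the values uncertain. Replicate 2 had more of 3 hypothalamic peptide genes. Avp (vasopressin) had 0.305 and 23.1 FPKM in shCSB/shNDN and 1.59 and 1.75 FPKM in shCSB, Oxt (oxytocin) had 0.327 and 10.3 FPKM in shCSB/shNDN and 1.02 and 0.419 FPKM in shCSB, and Pomc (proopiomelanocortin) had 1.60 and 12.7 FPKM in shCSB/shNDN and 1.90 and 1.49 FPKM in shCSB. In each of the 3, a single library stood apart from the other libraries of both groups.

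**Figure D5:**
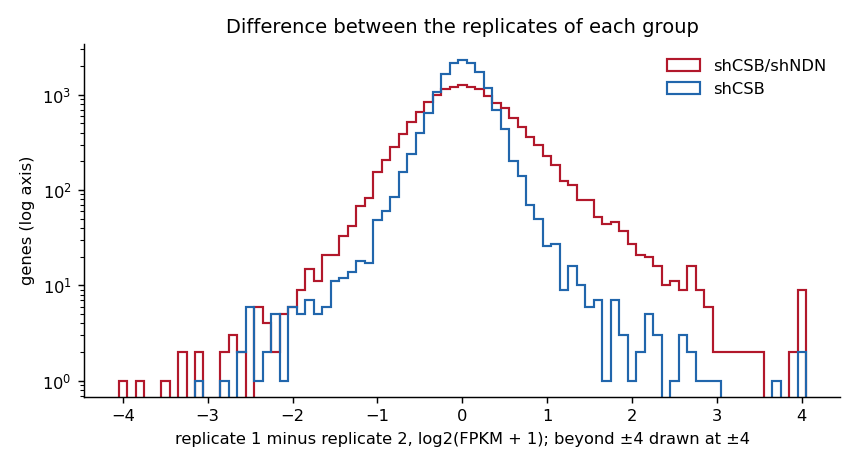
Number of genes (vertical, log axis) by the difference of replicate 1 minus replicate 2 in log2(FPKM + 1) (horizontal) for shCSB/shNDN in red and shCSB in blue, with values beyond ±4 drawn at ±4. The red curve is wider, and its right side, where replicate 1 is higher, holds more genes than its left.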

How the data were processed

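Per the labels' protocols, V1 cortex RNA went into a total RNA kit that keeps the strand. The authors deposited 1 table of FPKM values with a column per library and 54532 entries. FastQC, HISAT2 2.0.4 and the build GRCm39 are named per the submitters' processing notes. Which program counted, with which annotation and on which strand, is not given in the sources used here. Genes that overlap, lie antisense or are near copies therefore have uncertain values. Positions equal those of GENCODE M21 (GRCm38) for 53585 of 54495 shared identifiers (98.3%), and coordinates are given as GRCm38. The table held 27 symbols turned into dates, which were restored by identifier, and 100 symbols on several entries, which were summed, leaving 54429 genes.

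Multiplied by gene length, the FPKM values of a library were whole multiples of 1 number, which gave the reads behind them. A count of 0 allows 3 reads, for counting error only. The 4 libraries were compared as log2(FPKM + 1) by limma 3.58.1 under R 4.3.3, with a trend of variance on level, 2 residual and 3.59 prior degrees of freedom, two-sided, with Benjamini-Hochberg adjustment over the 15711 genes kept and a threshold of 0.05. The pseudocount of 1 understates differences of low genes. The steps were tested on simulated data. No exact permutation test was used, since 2 libraries against 2 cannot reach the threshold.

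The genes compared, the 42 lists and the tests were chosen with earlier results of these data known. A list is described by its median and by how many kept members have both shCSB/shNDN libraries above, or below, both shCSB libraries. Named genes were Ercc6, Ndn, in each direction up to 15 protein-coding genes of smallest unadjusted p among those with a mean of at least 1 FPKM in the higher group and groups apart, up to 4 genes of each list with the smallest p, and up to 10 per direction with the largest difference between the shCSB/shNDN libraries. Other list members named were chosen after their values were seen. A few genes that the rule names are not reported here. Alternatives were other pseudocounts, filters, scalings and spread estimates, all 6 libraries, a replicate block, limma-voom on the recovered reads, a weight per library, protein-coding genes, and each library left out in turn.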

Additional observations from a re-analysis of the deposited data

How the results depend on the processing

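With 2 animals per group, and shCSB/shNDN animals that differ widely, the spread limits every result. The count of genes past the threshold stayed at 0 with a pseudocount of 0.1, with no filter, with a mean of at least 1 FPKM, with all 6 libraries, with quantile or trimmed-mean scaling, without the trend, with a robust spread, with a weight per library, with protein-coding genes and with limma-voom, and it ran from 0 to 467 when 1 library was left out (0 without either shCSB library). Ndn ran from -1.30 to -0.060 and Ercc6 from 0.051 to 0.24 when 1 library was left out, and the cause of these shifts was not tested. The 30 further genes whose log2 difference is printed have groups that do not overlap. Their sign could therefore not change without 1 library, and that it was kept is no test of them. A fit with 1 library in a group assumes that it varies like the other group's pair.

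With the replicate number as a block, the count was 16 (13 higher, 3 lower). The numbers were not found to pair the animals: the labels do not say so, and the deviations of same-numbered libraries correlated at -0.0756 over the genes kept. Among list medians, a pseudocount of 0.1 and limma-voom moved those of chemokines (1.84 and 1.95), toll-like receptors (1.35 and 1.59), T cells (1.94 and 2.70) and reactive astrocytes (1.92 and 2.00) upwards, and that of neutrophils downwards (-0.64 and -0.85). The median of E2F and cell cycle genes was 0.83 with limma-voom, and that of T cells 0.22 with no filter. These scales weigh low genes more. The neutrophil median was 1.07 with a mean of at least 1 FPKM, over fewer genes. An edgeR test on the recovered reads was not run, since the deposited unit is FPKM.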

Other observations

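Short RNAs differed between the shCSB/shNDN animals more than protein-coding genes did. The median of replicate 1 minus replicate 2 on the log2(FPKM + 1) scale was 0.92 over 99 miRNA genes, 0.55 over 68 snoRNA genes, 0.67 over 45 snRNA genes and 1.24 over 17 mitochondrial tRNA genes, against 0.03 over 13176 protein-coding genes.

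Base composition showed no linear relation to the difference between the shCSB/shNDN animals. Over the 13163 of 13176 kept protein-coding genes with a GC value, Pearson's r between GC content and replicate 1 minus replicate 2 was -0.0048 in shCSB/shNDN and 0.218 in shCSB, a description across genes, which share their library and are not independent replicates. The comparison of the groups did vary with GC content. Over its 5 equal classes, from low to high, 11.1%, 15.4%, 19.5%, 19.6% and 21.6% of genes lay above both shCSB libraries in both shCSB/shNDN libraries. The shares below were 23.8%, 20.5%, 14.7%, 15.2% and 14.5%. The part of GC content in the list counts was not tested.

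Long intergenic RNAs lay below the shCSB pair more often than above it. Of 461 such genes, 57 (12.4%) had both shCSB/shNDN libraries above both shCSB libraries and 118 (25.6%) had both below, against 2302 (17.5%) and 2340 (17.8%) of the protein-coding genes.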
